A study of Rattus norvegicus with 18 samples.

Results

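Haem is made by a chain of enzymes, and 8 of their genes were followed across 3 areas of the rat brain together with the beta globin gene Hbb-b1. The enzyme genes were Alas1, Alas2, Alad, Uros, Urod, Cpox, Ppox and Fech. Every probe that the array files name for one of these genes, or for an older name of the same RefSeq transcript, was taken. This gave 10 of 41012 distinct probes and 9 of 16236 named genes, with 2 probes for Urod and 1 for each other gene. The genes were selected on their ratio between the strains, in which Uros stood out, so the members' strain ratios are given below as a description and without a test.

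Each of 18 two-colour Agilent arrays carried RNA of WHP rats, selected for high ethanol preference, in one dye and RNA of WLP rats, selected for low preference, in the other. All rats were male and had never been given alcohol, and neither strain received a treatment. A pool held RNA of 3 rats, and each of the hippocampus, the nucleus accumbens and the prefrontal medial cortex had 3 pairs of a WHP and a WLP pool, each hybridised on 2 arrays with the dyes exchanged. The 9 pool pairs are the replicates. A pool averages its rats, the labels used here state no age, and they leave unsaid if 1 set of rats gave all 3 areas.

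The strain ratio is log2(WHP/WLP), above 0 where WHP gave the brighter signal, and the level is the log2 intensity after normalization. All 10 probes were well above background in both strains on all 18 arrays, and none was saturated. An array has 45018 spots, and those above background numbered 28670 to 38080 for the green channel and 31207 to 38173 for the red. Ratios of the 2 arrays of a pool pair correlated at 0.31 to 0.71 over 28377 probes in 7 pairs. They correlated at 0.05 in nucleus accumbens pair 3 and at -0.008 in hippocampus pair 2. Globin and Alas2 ratios, or their area differences, are therefore also given without 1 or both of those pairs. Hippocampus arrays lie on slides and in a scan session of their own, so for the hippocampus area and slide cannot be told apart, while each nucleus accumbens pair shares a slide with a prefrontal pair. Against the labels, the prefrontal pools carried striatal signal: 9 striatal markers such as Drd1 and Penk had a mean level of 10.32 to 11.18 in nucleus accumbens pairs and 10.33 to 10.98 in prefrontal pairs, and 0 of 9 passed limma's test between these areas (1 at an unadjusted p under 0.05). All 7 measured cortical markers were lower in the nucleus accumbens than in the prefrontal pools, and all 6 hippocampal markers were higher in the hippocampus than in either other area.

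Haem synthesis begins in mitochondria, where an ALA synthase joins glycine and succinyl-CoA, continues in the cytosol with the assembly of a porphyrin ring, and ends in mitochondria with the insertion of iron. Alas1 encodes the ALA synthase of most tissues and Alas2 that of developing red cells. Brain cells need haem for respiratory cytochromes and other haem enzymes, whereas most haem of the body sits in the globins of red blood cells.

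The ratios of the pathway's first enzymes were small. Alas1 had log2(WHP/WLP) of 0.05, -0.03 and 0.04 in hippocampus pairs 1 to 3, of 0.17, 0.02 and 0.05 in the nucleus accumbens and of 0.13, 0.10 and 0.06 in the prefrontal cortex. The mean over the areas was 0.06 ± 0.02 (moderated SE, 9 pairs). Alas2 was at -0.10, 0.10 and -0.13 in the hippocampus, at -0.17, -0.18 and -0.01 in the nucleus accumbens and at -0.19, -0.63 and -0.19 in the prefrontal cortex. Alas2 thus lay below 0 in 8 of 9 pairs, with a mean of -0.17 ± 0.05, and its lowest value was prefrontal pair 2. Without both uncorrelated pairs the Alas2 mean was -0.21 ± 0.06.

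Alad, which joins 2 ALA molecules to porphobilinogen, was below 0 in all 9 pairs. Its ratios were -0.32, -0.15 and -0.02 in hippocampus pairs, -0.06, -0.16 and -0.16 in nucleus accumbens pairs, and -0.05, -0.27 and -0.19 in the prefrontal cortex. The mean was -0.15 ± 0.04, but the dye orientations differed, with -0.28 for WHP in Cy5 and -0.03 for WHP in Cy3, and 5 of 18 single arrays were above 0.

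Uros encodes uroporphyrinogen III synthase, which closes and turns the ring of the tetrapyrrole. Its probe is shown because its ratio had 1 sign on all 18 arrays. It lies at chr1:193188294-193189266 (rn4, minus strand), where 60 bases of the Uros transcript are spread over 973 bases of genome.
Uros probe: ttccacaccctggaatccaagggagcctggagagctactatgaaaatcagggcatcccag

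The Uros level was 7.60, 7.57 and 7.56 in WHP hippocampus pools, against 6.99, 7.10 and 7.17 in WLP hippocampus pools. In the nucleus accumbens it was 7.58, 7.55 and 7.53 in WHP, against 7.06, 7.04 and 7.15 in WLP. In the prefrontal cortex it was 7.61, 7.71 and 7.72 in WHP, against 7.21, 7.22 and 7.15 in WLP. The lowest WHP pool stood above the highest WLP pool in each of the 3 areas. The log2(WHP/WLP) values were 0.61, 0.47 and 0.39 in hippocampus pairs, 0.52, 0.52 and 0.38 in nucleus accumbens pairs, and 0.39, 0.49 and 0.56 in the prefrontal cortex. Means were 0.49 ± 0.11, 0.47 ± 0.08 and 0.48 ± 0.09 (SD, n = 3 pairs), and the mean over the areas was 0.48 ± 0.03 (moderated SE), which is 1.40-fold. All 18 single arrays were above 0, from 0.09 to 0.82.

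The area differences of the Uros ratio do not use its mean over the areas. But these differences are built from the ratios on which the genes were selected. They were 0.02 (95% interval -0.16 to 0.19) for hippocampus minus nucleus accumbens, 0.01 (-0.17 to 0.18) for hippocampus minus prefrontal cortex and -0.01 (-0.19 to 0.17) for nucleus accumbens minus prefrontal cortex. Uros is a dim probe, with scanner-processed signals of 127 to 197 in WHP pools and 58.7 to 98.1 in WLP pools, and the offset of 50 that was added to both channels draws such ratios towards 0. From the scanner's processed signals the mean Uros ratio was 1.02, and in the authors' deposited table it was 0.77. The area differences of the Uros ratio were then wider as well, at -0.36 for hippocampus minus nucleus accumbens and -0.41 for hippocampus minus prefrontal cortex with the scanner's processed signals, and neither passed limma's test.

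**Figure D1:**
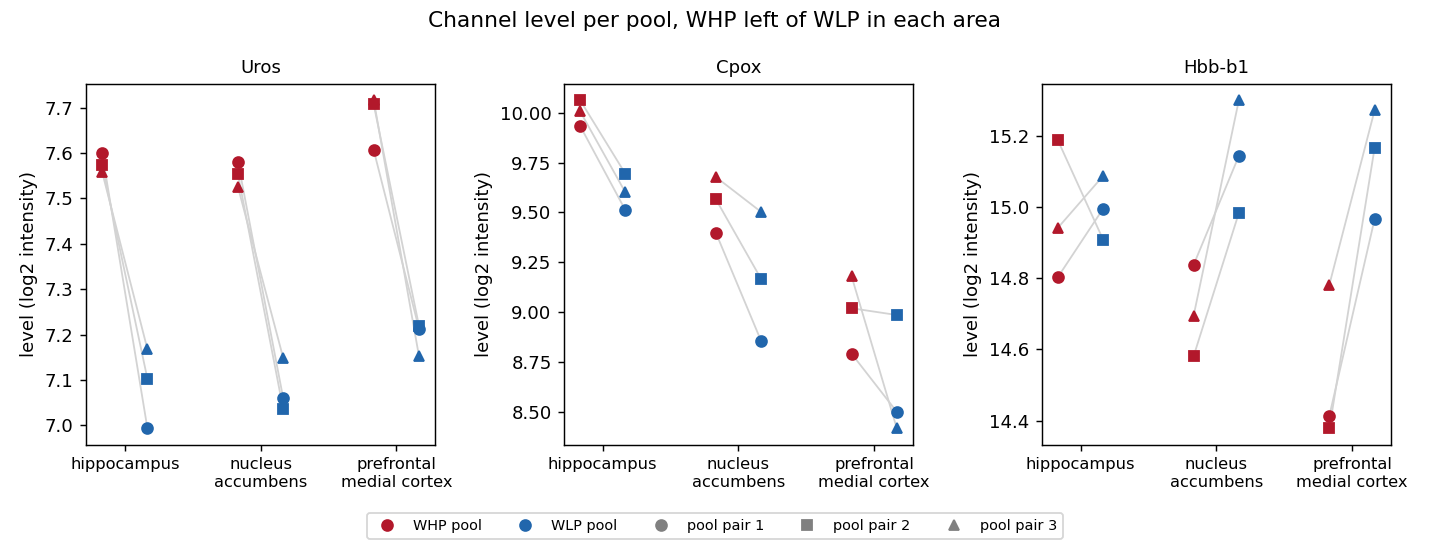
Channel level (log2 intensity) of Uros, Cpox and Hbb-b1 in each pool, with WHP left of WLP in each area and a grey line joining the pools of 1 pair. WHP pools of Uros lie above WLP pools in all 3 areas, while those of Hbb-b1 lie below WLP pools in the nucleus accumbens and prefrontal cortex and overlap with them in the hippocampus.

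Urod, which trims the side chains of uroporphyrinogen, had 2 probes, and they can be set against each other because they read the same transcript. Probe 1 lies at chr5:137296424-137296483 and probe 2 at chr5:137296599-137297391 (rn4, minus strand), the second being shown as the one that crosses 793 bases of genome.
Urod probe 2: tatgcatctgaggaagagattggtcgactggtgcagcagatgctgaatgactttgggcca
The mean ratio was 0.04 ± 0.03 by probe 1 and 0.06 ± 0.04 by probe 2, with 8 and 7 of 9 pairs above 0. Prefrontal pair 1 was the lowest pair of both, at -0.10 by probe 1 and -0.24 by probe 2. Neither probe showed a strain difference near the size of the Uros ratio in any area, the farthest area mean being 0.13 (probe 2, nucleus accumbens).

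Cpox, whose mitochondrial enzyme oxidises coproporphyrinogen, was above 0 in all 9 pairs and on 16 of 18 arrays. Its ratios were 0.42, 0.37 and 0.41 in hippocampus pairs, 0.54, 0.40 and 0.18 in nucleus accumbens pairs, and 0.29, 0.03 and 0.76 in the prefrontal cortex. The pairs of the hippocampus were close together (SD 0.03) and those of the prefrontal cortex far apart (SD 0.37), where the mean was 0.36 and, without pair 3, 0.16. The mean over the areas was 0.38 ± 0.07, and the dye orientations differed, at 0.52 with WHP in Cy5 and 0.23 with WHP in Cy3. Cpox levels were 9.94, 10.06 and 10.01 in WHP hippocampus pools, against 9.51, 9.70 and 9.60 in WLP hippocampus pools, without overlap, whereas WHP and WLP pools overlapped in the nucleus accumbens and in the prefrontal cortex. The single probe lies at chr11:42748792-42748851 (rn4, minus strand) and has a GC content of 23.3%.

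The last enzymes of the chain had means close to 0 after background correction with the offset. Ppox, which oxidises protoporphyrinogen, ranged from -0.03 to 0.17 over the pairs with a mean of 0.07 ± 0.03. Ppox is a dim probe too, with scanner-processed signals of 37.8 to 54.1 in hippocampus pools and 85.2 to 141 in pools of the other areas, and from these signals its hippocampus ratio was 0.30 in place of 0.09. Fech, the ferrochelatase that inserts the iron, ranged from -0.14 to 0.10 with a mean of -0.02 ± 0.03. Fech was below 0 in all 3 nucleus accumbens pairs and above 0 in all 3 prefrontal pairs, but that area difference was -0.13 (95% interval -0.28 to 0.02) and did not pass limma's test (adjusted p = 1.00).

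**Figure D2:**
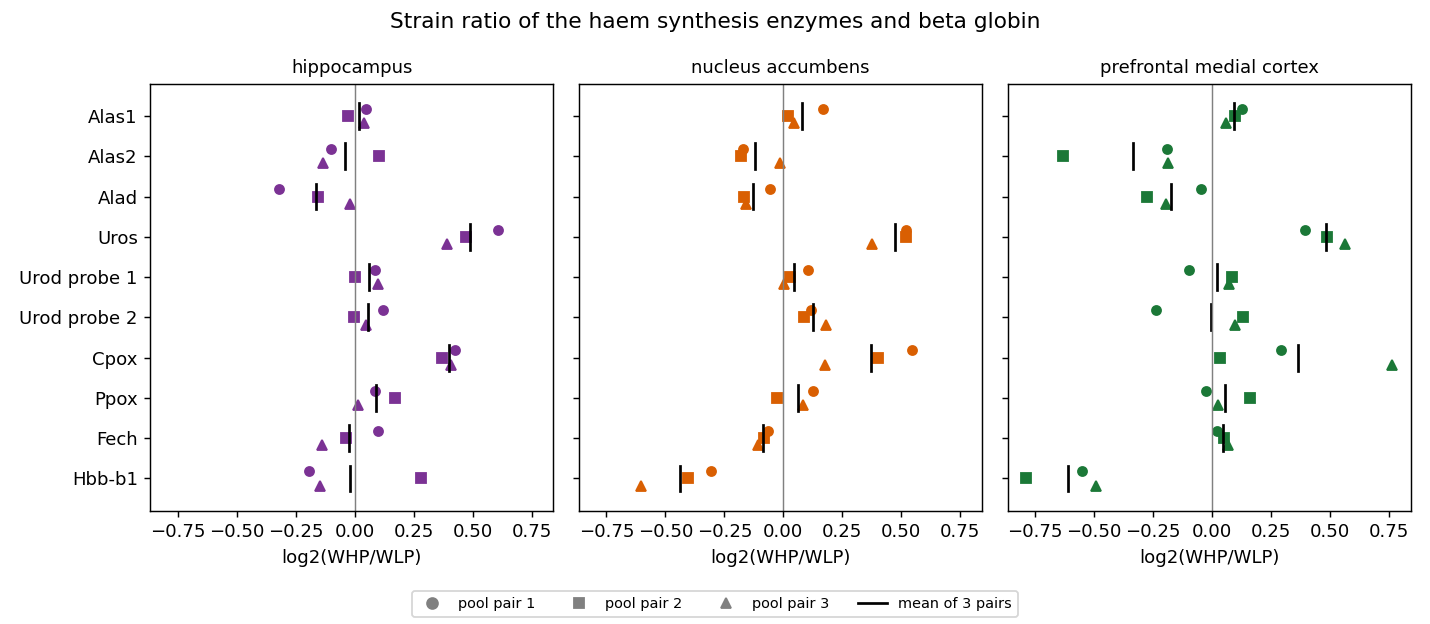
log2(WHP/WLP) of each probe in every pool pair (symbols) and the area mean (bar), for hippocampus, nucleus accumbens and prefrontal medial cortex. Uros and Cpox lie right of 0 in all 9 pairs, Alad lies left of 0 in all 9, and Hbb-b1 lies left of 0 in 8.

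Hbb-b1 encodes a beta chain of haemoglobin. Its probe at chr1:161590680-161590739 (rn4, minus strand) is listed for 3 beta globin transcripts, so the beta globin genes cannot be separated by it. The level in the prefrontal cortex was 14.41, 14.38 and 14.78 in WHP pools, against 14.97, 15.17 and 15.27 in WLP pools. In the nucleus accumbens it was 14.84, 14.58 and 14.70 in WHP pools, against 15.14, 14.98 and 15.30 in WLP pools. WHP pools were below all WLP pools in both of these areas. In the hippocampus the level was 14.80, 15.19 and 14.94 in WHP pools, against 15.00, 14.91 and 15.09 in WLP pools, and the strains overlapped.

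The Hbb-b1 ratio was -0.19, 0.28 and -0.15 in hippocampus pairs, -0.31, -0.40 and -0.60 in nucleus accumbens pairs, and -0.55, -0.79 and -0.49 in the prefrontal cortex. The area means were -0.02 ± 0.26, -0.44 ± 0.15 and -0.61 ± 0.16 (SD, n = 3 pairs), and the mean over the areas was -0.36 ± 0.06, with WLP 1.28-fold over WHP. Both arrays of hippocampus pair 2, at 0.24 and 0.32, were the only ones of 18 above 0. This is one of the 2 pairs whose dye-swapped arrays did not correlate, and without it the hippocampus mean was -0.17. In such bulk RNA, fewer red blood cells and less globin RNA per cell cannot be told apart.

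The area differences of the ratio were tested for all probes. As for Uros, those of the members are built from the ratios on which the genes were selected. For Hbb-b1 hippocampus minus prefrontal cortex was 0.59 (95% interval 0.27 to 0.91) and hippocampus minus nucleus accumbens 0.42 (0.09 to 0.74), while nucleus accumbens minus prefrontal cortex was 0.17 (-0.15 to 0.50). With median centring in place of loess, hippocampus minus nucleus accumbens was 0.0098 for Hbb-b1, as its hippocampus and nucleus accumbens ratios were -0.23 and -0.24, and hippocampus minus prefrontal cortex was 0.32. Without hippocampus pair 2 these Hbb-b1 differences were 0.27 and 0.44, and without both uncorrelated pairs 0.18 and 0.44. The Hbb-b1 difference between nucleus accumbens and prefrontal cortex was 0.08 without prefrontal pair 2 and 0.31 with median centring. Alas2, the red cell ALA synthase, had 0.29 (0.0021 to 0.58) for hippocampus minus prefrontal cortex, which was 0.14 without prefrontal pair 2, 0.15 with median centring and 0.22 without both uncorrelated pairs. After Benjamini-Hochberg adjustment in limma, 0 of 10 probes passed in any of the 3 area differences, and 0% of all probes passed (0, 0 and 0 of 29842, 28588 and 28502 tested). At an unadjusted p under 0.05 there were 1 member for hippocampus minus nucleus accumbens (2574 of all probes), 2 for hippocampus minus prefrontal cortex (1029) and 0 for nucleus accumbens minus prefrontal cortex (948). The adjusted p of Hbb-b1 was 0.577 and 0.997 for the differences of the hippocampus from the nucleus accumbens and from the prefrontal cortex.

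Other globin and red cell probes were set beside Hbb-b1. The Hba-a3 probe is listed for 3 alpha globin transcripts and lies at chr10:15559132-15559189 (rn4, minus strand); it is shown because an alpha globin gene is on another chromosome than Hbb-b1.
Hba-a3 probe: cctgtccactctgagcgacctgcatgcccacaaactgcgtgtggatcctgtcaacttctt
Its ratios were -0.11, 0.25 and -0.24 in hippocampus pairs, -0.38, -0.16 and -0.36 in nucleus accumbens pairs, and -0.56, -0.69 and -0.29 in the prefrontal cortex. Hippocampus pair 2 was the one pair above 0 for it as well, and its mean of -0.28 ± 0.06 passed limma's test (adjusted p = 0.045). Without both uncorrelated pairs the Hba-a3 mean was -0.32 and did not pass (adjusted p = 0.0749), nor did it without nucleus accumbens pair 3 (adjusted p = 0.105) or prefrontal pair 2 (adjusted p = 0.105), while it passed without hippocampus pair 2 (adjusted p = 0.0303). A second beta globin probe, named Hbb, had -0.11, 0.21 and -0.20 in hippocampus pairs, 0.17, -0.92 and -1.14 in nucleus accumbens pairs, and -0.52, -0.77 and -0.52 in the prefrontal cortex. The 2 arrays of nucleus accumbens pair 3 gave 0.07 and -2.35 for Hbb, which lie far apart. The Hbb mean over the areas was -0.42, and -0.38 without both uncorrelated pairs, and the nucleus accumbens mean was -0.63, and -0.38 without pair 3. Ahsp, the chaperone of free alpha globin, was above 0 in 8 of 9 pairs, with a mean of 0.17 ± 0.06 that did not pass limma's test (adjusted p = 0.166).

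Of 20 red cell markers, which include Alas2 and Hbb-b1, 15 were detected and 11 were tested for the mean over the areas. Of these, 5 ratios were positive and 6 negative with a median of -0.03, beside 0.0010 over all 12507 genes at 1 probe per gene. The mean level of the detected markers was 8.002 to 8.234 in WHP pools and 8.13 to 8.24 in WLP pools. The array median was 7.90. Single markers lay far apart, with Hbb-b1 at 14.91 and Bpgm at 10.40, but Slc4a1 at 6.96, Epb42 at 6.51 and Gata1 at 6.45. As for Uros, the offset draws ratios of such dim probes towards 0, so their small ratios do not show equal levels in the strains. Nfe2 was not detected, and Hba-a1, Hba-a2 and Hba1 had no probe of that name. Beside these ratios, the median over 8 meningeal markers ran from -0.88 to 2.17 over the 9 pairs, that over 8 choroid plexus markers from -0.27 to 1.98, that over 9 striatal markers from -0.90 to 0.44, that over 9 granulocyte and platelet markers from -0.08 to 0.10 and that over 11 endothelial markers from -0.20 to 0.35. Their part in the members' ratios was not tested.

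**Figure D3:**
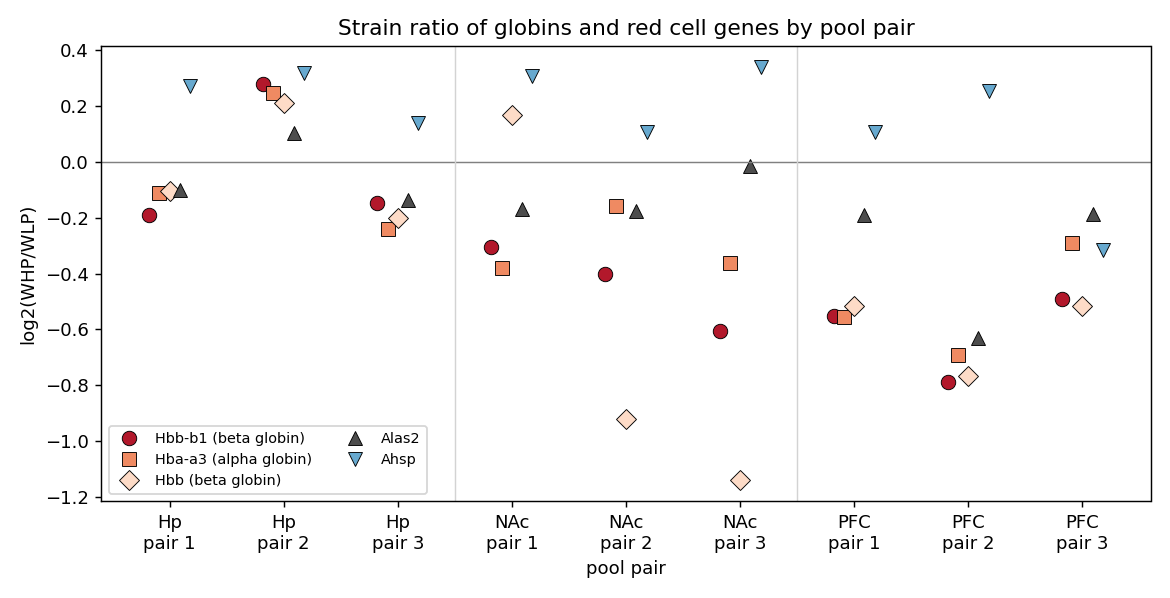
log2(WHP/WLP) of Hbb-b1, Hba-a3, Hbb, Alas2 and Ahsp in the 9 pool pairs (Hp, hippocampus; NAc, nucleus accumbens; PFC, prefrontal medial cortex). Hbb-b1, Hba-a3, Hbb and Alas2 are all above 0 in hippocampus pair 2, and Ahsp lies above the other 4 in every pair but prefrontal pair 3, where Alas2 and Hba-a3 are higher.

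In the same fit 1 of the 10 probes, Uros, had an adjusted p under 0.05 in each single area, where 0.25% of all probes did in the hippocampus, 0.252% in the nucleus accumbens and 0.0905% in the prefrontal cortex. For the mean over the areas it was 3 of 10 probes, Uros and Cpox above 0 and Hbb-b1 below, where 2.85% of all 28377 probes tested had one. As the members were selected on this contrast, nothing is read from these counts. The median ratio of the 10 probes was 0.05, beside 0.00011 over all probes.

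The genome around Uros was read from probes within 1000000 bases. Of 32 such probes other than Uros, 27 were tested, and 2 passed limma's test for the mean over the areas (6 at an unadjusted p under 0.05, as were 5059 of all 28377 probes). One is an unnamed transcript, TC597993 in the array files, whose probe lies on the same strand at a distance of -4066 bases, towards lower coordinates, at chr1:193184228-193184287. Its ratios were 1.47, 1.04 and 1.42 in hippocampus pairs, 1.36, 1.22 and 1.30 in nucleus accumbens pairs, and 0.86, 1.06 and 1.33 in the prefrontal cortex. All 18 arrays were above 0, and the mean of 1.23 ± 0.06 was 2.34-fold (adjusted p = 7.26e-05, limma). The files do not say whether this probe reads a Uros transcript.

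The other probe that passed was 1 of 2 for Edrf1, with a mean of -0.16 ± 0.03 (adjusted p = 0.0366, limma), while the second Edrf1 probe had -0.11 ± 0.05 (adjusted p = 0.314). The named neighbours Bccip, Dhx32, Fank1, Ctbp2, Abraxas2, Eef1akmt2, Tex36 and C1h10orf90 did not pass, and the median ratio of the 27 probes was 0.0037. Within the same distance of Alad 2 of 30 tested probes passed, both of Bspry and both below 0 (-0.25 and -0.46), and near Alas2 1 of 21 passed, for Gnl3l (-0.28). In limma's test 0 of 50 probes passed near Urod, 0 of 10 near Cpox, 0 of 53 near Ppox, 0 of 23 near Fech and 0 of 33 near Hbb-b1, with 4, 2, 13, 4 and 3 at an unadjusted p under 0.05, and Alas1 has no position in the files.

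**Figure D4:**
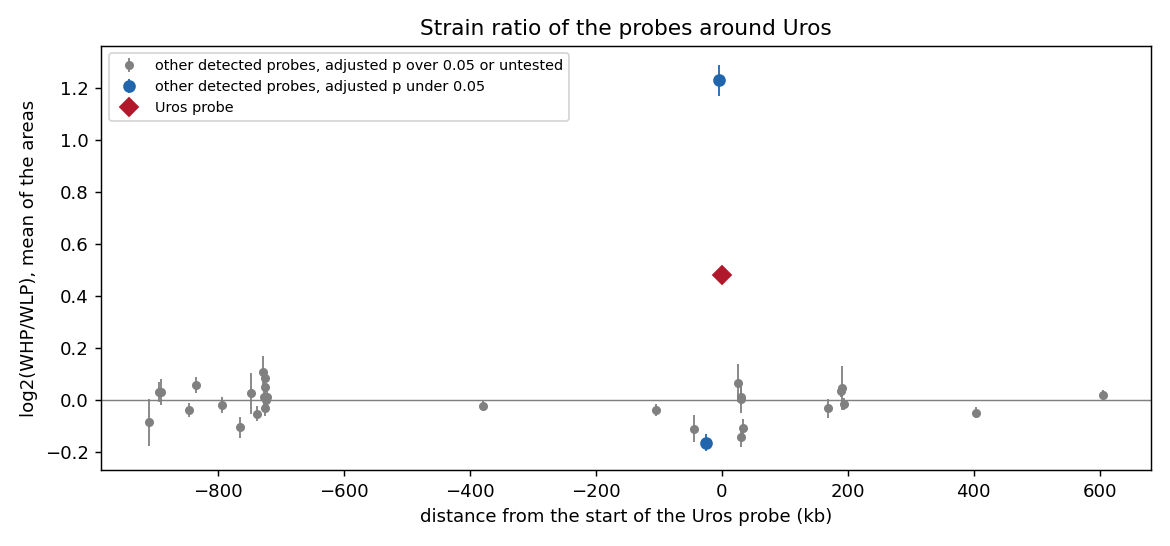
Mean log2(WHP/WLP) over the areas of the detected probes near Uros against their distance from the start of the Uros probe (kb), with moderated SE. The unnamed probe at 1.23 and Uros at 0.48 stand above the others, which lie between -0.16 and 0.11.

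Over the 18 pools the genes most like Uros in level included Lat, the T cell adaptor, with a Pearson correlation of 0.93, Tac4, which encodes a tachykinin, with 0.91, and Pofut1 and Ccl3 with 0.84, of 14709 genes. For Hbb-b1 they were Grk4 and Rpl38 with 0.73, Gpm6b with 0.72, and Smad7 and Mrpl52 with 0.68. The pools of an array share hybridisation and scan. The 18 pools are also split by strain, on which the genes were selected, so genes with a strain ratio of their own can rank high. These correlations are given as a description. Lat, Tac4, Pofut1 and Ccl3 had mean log2(WHP/WLP) of 0.33, 1.74, 0.39 and 0.20. For Grk4, Rpl38, Gpm6b, Smad7 and Mrpl52 it was -0.08, -0.39, -0.10, -0.20 and -0.55.

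The level of each probe was next compared between the areas, which the choice of the genes did not use. Here 6 of 10 probes passed limma's test for hippocampus over nucleus accumbens, where 73.4% of all probes did, 7 for hippocampus over prefrontal cortex, where 70.3% did, and 7 for nucleus accumbens over prefrontal cortex, where 49.6% did. Level differences between areas were thus common over the whole array, and those of single genes are given with their sizes. All are differences of log2 level, for 3 pool pairs an area with the strains averaged.

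Cpox differed in level between all 3 areas. Its level was 9.72, 9.88 and 9.81 in hippocampus pairs, 9.13, 9.37 and 9.59 in nucleus accumbens pairs and 8.65, 9.00 and 8.80 in the prefrontal cortex. The areas did not overlap, and the hippocampus was higher by 0.44 ± 0.12 than the nucleus accumbens (adjusted p = 0.00678, limma) and by 0.99 ± 0.12 than the prefrontal cortex (adjusted p = 4.51e-05, limma), a 1.98-fold difference. The nucleus accumbens exceeded the prefrontal cortex by 0.55 ± 0.12 (adjusted p = 0.00376, limma), and by 0.48, 0.36 and 0.79 on the 3 slides that hold both areas.

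Alad stood out in the nucleus accumbens. Its level was 12.77, 12.86 and 12.82 in hippocampus pairs, 13.40, 13.22 and 13.35 in nucleus accumbens pairs and 12.87, 12.72 and 12.73 in the prefrontal cortex. The hippocampus was lower than the nucleus accumbens, with a difference of -0.50 ± 0.06 (adjusted p = 4.04e-05, limma), and did not differ beyond the spread from the prefrontal cortex (0.05 ± 0.06, adjusted p = 0.513). The nucleus accumbens was higher than the prefrontal cortex by 0.55 ± 0.06 (adjusted p = 8.29e-05, limma), with 0.53, 0.50 and 0.62 on the shared slides.

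The 2 Urod probes ordered the areas differently. By probe 1 the levels were 13.61, 13.65 and 13.64 in hippocampus pairs, 14.12, 14.10 and 13.99 in nucleus accumbens pairs and 13.55, 13.50 and 13.34 in the prefrontal cortex. By probe 2 they were 12.79, 12.75 and 12.77 in hippocampus pairs, 12.70, 12.72 and 12.63 in nucleus accumbens pairs and 12.52, 12.51 and 12.47 in the prefrontal cortex. Hippocampus minus nucleus accumbens was -0.43 ± 0.06 by probe 1 (adjusted p = 0.000104, limma) and 0.09 ± 0.04 by probe 2 (adjusted p = 0.0729). Both probes were higher in the nucleus accumbens than in the prefrontal cortex, by 0.60 ± 0.06 with probe 1 (adjusted p = 4.58e-05, limma) and by 0.18 ± 0.04 with probe 2 (adjusted p = 0.00511, limma). Both were also higher in the hippocampus than in the prefrontal cortex, by 0.17 ± 0.06 with probe 1 and 0.27 ± 0.04 with probe 2 (adjusted p = 0.028 and 0.000232, limma), and the call of probe 1 was lost in 8 of 19 alternative settings.

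Ppox and Fech were lowest in the hippocampus. Ppox was at 6.78, 6.71 and 6.78 there, at 7.39, 7.34 and 7.17 in the nucleus accumbens and at 7.44, 7.32 and 7.34 in the prefrontal cortex. Hippocampus minus nucleus accumbens was -0.54 ± 0.06 (adjusted p = 2.7e-05, limma), and hippocampus minus prefrontal cortex was -0.61 ± 0.06 (adjusted p = 1.53e-05, limma). As for the Uros ratio, the offset narrows differences of so dim a probe, and with the scanner's processed signals these Ppox differences were -1.68 and -1.82, both still past limma's test. Fech had levels of 8.94, 8.90 and 8.85 in the hippocampus, of 9.32, 9.21 and 9.29 in the nucleus accumbens and of 9.17, 9.17 and 9.23 in the prefrontal cortex, with differences of -0.38 ± 0.05 (adjusted p = 4.23e-05, limma) and -0.30 ± 0.05 (adjusted p = 0.000249, limma). Neither gene differed beyond the spread between the nucleus accumbens and the prefrontal cortex, at -0.07 ± 0.06 for Ppox and 0.08 ± 0.05 for Fech.

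The 2 ALA synthase genes had different area orders. Alas1 averaged 13.30 ± 0.05 in the hippocampus, 13.27 ± 0.04 in the nucleus accumbens and 13.03 ± 0.09 in the prefrontal cortex (SD, n = 3 pairs), with the hippocampus 0.27 (adjusted p = 0.00143, limma) and the nucleus accumbens 0.24 (adjusted p = 0.0055, limma) above the prefrontal cortex. Alas2 averaged 8.65 ± 0.02 in the hippocampus, 8.30 ± 0.13 in the nucleus accumbens and 8.57 ± 0.13 in the prefrontal cortex, with the nucleus accumbens lowest. Hippocampus minus nucleus accumbens was 0.35 (adjusted p = 0.00217, limma), and nucleus accumbens minus prefrontal cortex was -0.26 (adjusted p = 0.0166, limma), a call of Alas2 that was lost in 4 of 19 alternative settings.

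Uros hardly varied by area, at 7.33 ± 0.03 in the hippocampus, 7.32 ± 0.02 in the nucleus accumbens and 7.44 ± 0.03 in the prefrontal cortex (SD, n = 3 pairs). Its differences from the prefrontal cortex, -0.10 for the hippocampus (adjusted p = 0.0362, limma) and -0.12 for the nucleus accumbens (adjusted p = 0.029, limma), lost the call in 12 and 11 of 19 alternative settings. As for Ppox, the offset narrows level differences of this dim probe. With the scanner's processed signals these Uros differences were -0.203 and -0.206, and neither passed limma's test. Hbb-b1 averaged 14.99 ± 0.08, 14.92 ± 0.12 and 14.83 ± 0.18 in the hippocampus, nucleus accumbens and prefrontal cortex, and no area difference passed limma's test (adjusted p of 0.15 to 0.548). For hippocampus minus prefrontal cortex the Hbb-b1 level difference was 0.16, and 3 of 19 alternative settings gained the call, at 0.34 with the scanner's processed signals, 0.45 with WHP pools alone and 0.26 without prefrontal pair 3. It was -0.14 with WLP pools alone and 0.68 with median centring of levels, which did not pass. The Hbb probe, listed for 1 of the 3 transcripts of the Hbb-b1 probe, did differ by area. Its level was lower in the hippocampus than in the nucleus accumbens (-1.73, adjusted p = 1.69e-05, limma) and the prefrontal cortex (-1.21, adjusted p = 0.000233, limma). Nucleus accumbens minus prefrontal cortex was 0.52 for Hbb (adjusted p = 0.0411, limma), though the pool pairs of these areas overlapped. The 2 beta globin probes thus disagree on area levels. They lie at different transcript positions, 0 for Hbb and 558 for Hbb-b1, and the part of this in the disagreement was not tested.

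**Figure D5:**
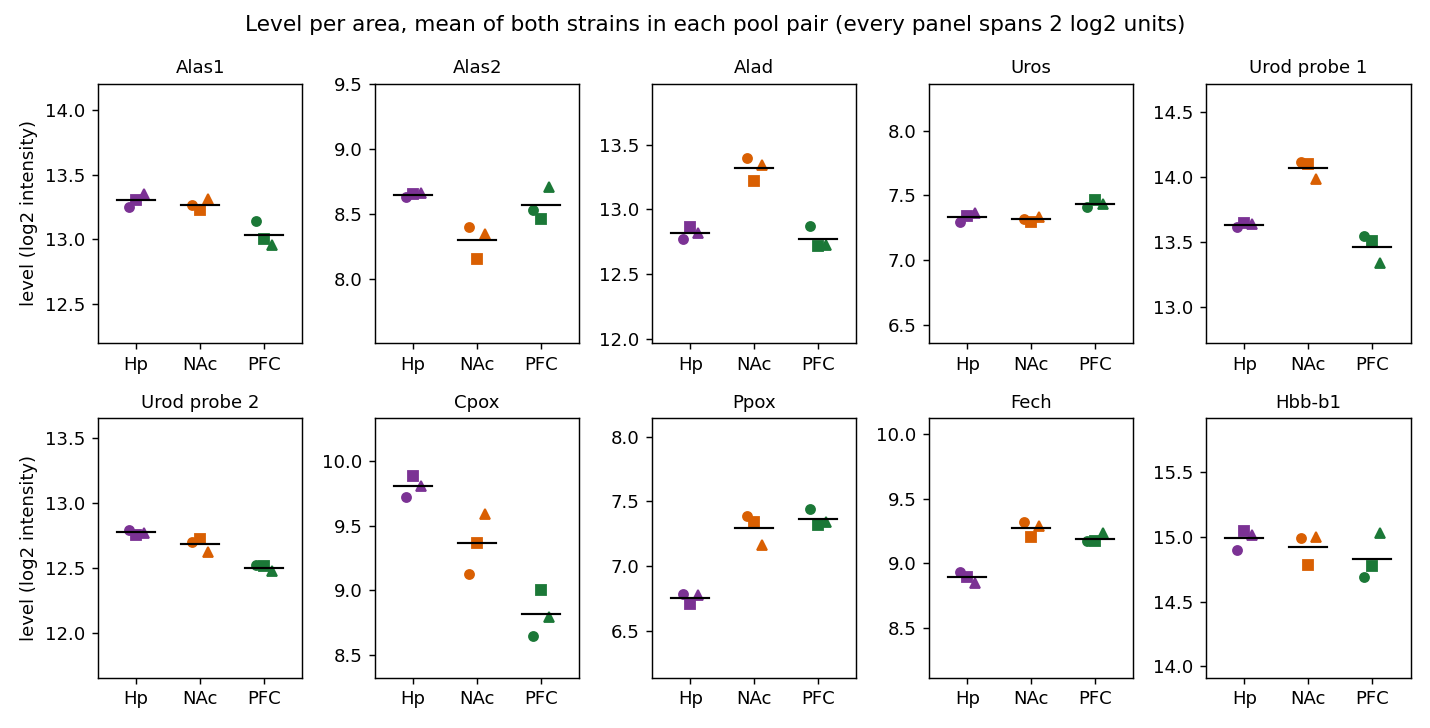
Level (log2 intensity, mean of both strains) of the 10 probes in the 3 pool pairs of the hippocampus (Hp), nucleus accumbens (NAc) and prefrontal medial cortex (PFC), with bars at the area means, each panel spanning 2 log2 units. Alad and Urod probe 1 are highest in the nucleus accumbens, Ppox and Fech lowest in the hippocampus, and Uros and Hbb-b1 nearly level.

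These level differences depend on how levels are matched between arrays. With arrays centred on their median in place of quantile normalization, 0 of 10 probes passed for nucleus accumbens over prefrontal cortex (1752 of 30455 probes in all), and the hippocampus minus nucleus accumbens differences of Alad and of Urod probe 1 were -0.01 and -0.0044. With that setting hippocampus minus prefrontal cortex became 0.70 for Alad, which passed limma's test, and the Fech differences of -0.19 from the nucleus accumbens and -0.05 from the prefrontal cortex did not pass.

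Further genes of haem handling were read from the same fit. Of 13 genes that supply or help the synthesis, 14 of haem breakdown and transport, 9 haem-responsive regulators, 13 of iron handling, 7 other globins and 12 haem proteins tested for the mean over the areas, Hba-a3 alone passed limma's test, beside 2.61% of all 12507 genes at 1 probe per gene. At an unadjusted p under 0.05 there were 2, 3, 4, 0, 2 and 1 genes of these lists, beside 18.8% of all genes. Median ratios of these lists were -0.015, -0.0013, -0.036, -0.016, -0.0084 and -0.027, beside 0.0010 over all genes. In the single areas 0 genes of any of these lists passed in limma (0 to 5 genes of a list at an unadjusted p under 0.05, beside 6.91% to 15.9% of all genes), where 0.164% of all genes did in the hippocampus, 0.209% in the nucleus accumbens and 0.103% in the prefrontal cortex.

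Between areas many of them differed in level, as did 74.3% of all genes for hippocampus over nucleus accumbens, 71.9% for hippocampus over prefrontal cortex and 50.1% for nucleus accumbens over prefrontal cortex. Level differences of these further genes were not read with median centring or the other alternative settings. Of the 13 synthesis helpers, 2 were higher and 7 lower in the hippocampus than in the nucleus accumbens, the same counts held against the prefrontal cortex, and 2 were higher and 2 lower in the nucleus accumbens than in the prefrontal cortex. Among them were Slc25a39, a mitochondrial carrier (-0.81), the protease subunit Clpp (-0.65) and the iron importer Slc25a28 (-0.50), all for hippocampus over nucleus accumbens, and Abcb10 (-0.33) for hippocampus over prefrontal cortex. Of the 9 regulators, 6 were lower and 0 higher in the hippocampus than in the nucleus accumbens, among them the haem sensors Bach1 (-0.69) and Nr1d2 (-0.61). Against the prefrontal cortex 6 were lower, such as Nr1d1 (-0.81) and Mafk (-0.60), and 1 higher.

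Of the iron genes, 9 of 14 were higher and 2 lower in the hippocampus than in the nucleus accumbens. The transferrin receptor Tfrc (0.83) and the iron sensor Fbxl5 (0.87) were higher and the ferritin receptor Ncoa4 (-1.35) lower, and transferrin, Tf, was 1.28 higher in the hippocampus than in the prefrontal cortex, where 8 iron genes were higher and 1 lower. Of 16 breakdown and transport genes, 6 were higher and 6 lower for hippocampus over nucleus accumbens, among them Hp, which encodes haptoglobin (0.99), Lrp1 (-1.60) and the haem oxygenase partner Por (-0.76), and 7 were higher and 6 lower over the prefrontal cortex, with Pgrmc2 at -0.83. Of 9 other globins, 5 were higher and 3 lower for hippocampus over nucleus accumbens, with neuroglobin Ngb at -1.85, cytoglobin Cygb at -1.45, Hbg1 at 0.85 and Hbe2 at 0.65. Hbg1 is a dim probe, with scanner-processed signals of 47.8 to 66.6 in nucleus accumbens pools and 182 to 193 in hippocampus pools, so the offset narrows its difference. Of 12 haem proteins, 4 were higher and 3 lower for the same areas, including Ptgs2 (3.04) and Nos1 (-0.62), while for hippocampus over prefrontal cortex the cytochrome c gene Cycs was at 0.68 and the cholesterol hydroxylase gene Cyp46a1 at -1.0025.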

How the data were processed

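The authors deposited each array's raw spot intensities, 1 set for each dye, with no correction for background or dye applied, as the headers show. The scanner's processed signals were deposited beside them and served here as an alternative. The scans were read with Agilent Feature Extraction 10.10.1.1, per the file headers. Positions are those of the files, on rn4. A further table that the authors deposited holds log2 ratios by array, with the sign of WHP/WLP on all 18 and with unstated normalization. RNA was extracted with RNeasy columns and labelled with a low-input two-colour kit, per the labels' protocols.

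Background was corrected by normexp with an offset of 50, and arrays were normalized by loess (limma 3.58.1, R 4.3.3). Controls and non-uniform spots were left out, ratios were turned to WHP/WLP, and the 2 arrays of a pool pair were averaged, which cancels a dye effect. Levels were quantile-normalized between arrays. A probe was detected where it was well above background in one strain's channel on at least 4 of 6 arrays of an area. Probes were named through RefSeq accessions (17525 probes by their own, 401 by another listed one), file symbols (2847) or synonyms (518), which left 19721 unnamed. The fit (lmFit, eBayes) held 9 pool pairs with 1 coefficient per area, 6 residual and 2.46 prior degrees of freedom. P-values were adjusted over all detected probes by Benjamini-Hochberg, with a threshold of 0.05, and the number of arrays limits the precision. The fit was tested on simulated data.

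Members and lists were chosen with earlier results of these data known. Named were all 9 genes with every probe, up to 4 genes past the test per list with the smallest adjusted p, the named genes near Uros, and the 5 genes most like Uros and Hbb-b1, of which 1 is not reported here. Same-numbered pool pairs of different areas correlated at -0.38 to 0.17 in their deviations, and the numbers were not treated as pairing. These correlations cannot show whether same-numbered pools came from the same rats. Same-numbered nucleus accumbens and prefrontal pairs did share a slide.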

Additional observations from a re-analysis of the deposited data

Results flagged for a closer look

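Of 30 tests for a single array apart from the other 5 of its area, 1 was met, where chance gives about 1 in 20. Urod probe 1 had a log2(WHP/WLP) of -0.0752 on the hippocampus pair 2 array with WHP in Cy5, against 0.0578 to 0.118 on the other 5 hippocampus arrays. That pair is one of the 2 whose dye-swapped arrays did not correlate, and its part in the value was not tested.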

How the results depend on the processing

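Counts of the 10 probes with adjusted p under 0.05 depend on the settings. In the hippocampus, nucleus accumbens and prefrontal cortex the count was 1 each, and it was 0 in all 3 under arrays with WHP in Cy3 alone, the replicate block, eBayes with trend and robust, areas fitted alone and without the 2 pool pairs of uncorrelated dye swaps, an alternative chosen after seeing the data. It was also 0 with median centring in place of loess in the nucleus accumbens and prefrontal cortex, with WHP in Cy5 alone in the hippocampus and nucleus accumbens, and with the scanner's processed signals or the authors' deposited table in the hippocampus. For the mean over the areas the count of 3 became 1 (Uros) with median centring and with the replicate block, and 0 with trend and robust, where 0 of 28377 probes passed. Median centring of levels gave 0 in place of 7 probes for nucleus accumbens over prefrontal cortex and 3 in place of 6 (Alas2, Cpox, Ppox) for hippocampus over nucleus accumbens. Leaving out each pool pair in turn gave 0 to 1 in each area, 1 to 4 for the mean (1 without hippocampus pair 1 or pair 3), 0 for each area difference of the ratio, 6 for the level of hippocampus over nucleus accumbens, and 5 to 7 for both level contrasts with the prefrontal cortex. The cause of these changes was not tested. Single-gene values were labelled by kind. A ratio in an area or over the areas held if it moved by less than the replicate spread. A level difference or an area difference of the ratio held if its call did not change, whatever its size. So 1658 held, 54 ratios moved by more than the spread, 46 differences lost and 6 gained the call, and 0 called values changed sign. With 0 probes past the test in area differences of the ratio, holding there does not show a stable size. Hbb-b1 for hippocampus minus nucleus accumbens held by this rule, at 0.42 and, with median centring, 0.0098. The replicate block changed no other count by over 1.5 times.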
